A study of Caenorhabditis elegans with 10 samples.

Results

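The transcripts described here are those copied from mitochondrial DNA in the nematode Caenorhabditis elegans. They were taken as the probe sets whose annotation names exactly 1 gene, that gene being ND1, ND4, ND5, COX1, COX2, COX3, CYTB or ATP6. The choice gave 8 probe sets, 1 for each of the 8 genes, of 22548 probe sets tested for 17118 named genes. The RefSeq table (assembly WBcel235) places all 8 on the mitochondrial genome (MT), which it lists with 12 protein-coding genes, 22 transfer RNA genes and 2 ribosomal RNA genes. ND2, ND3, ND4L and ND6 are not analysed here, and coordinates are left out because the array's own genome build was not given in the sources used here.

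The study set whole young adult worms of the gas-1(fc21) strain, a missense mutant of the electron transport chain, against whole young adults of the N2 (Bristol) wild type, to find metabolic pathways downstream of the mutation. Each genotype had 5 biological replicates on 1 Affymetrix array each, all raised on OP50 bacteria, and each replicate was a pool of sorted living adults. In such bulk RNA, fewer cells of a type and less RNA per cell cannot be told apart. The gene gas-1 encodes a nuclear subunit of complex I, and its own transcript was at 11.11 ± 0.21 in gas-1(fc21) and 10.44 ± 0.19 in the wild type on its brighter probe set (log2 intensity, SD, n = 5 each). Because fc21 is a missense allele, that level does not check the genotype labels. The suffix of this gas-1 probe set marks probes that can match other transcripts.

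Respiratory complexes I, III, IV and V are built from the products of both genomes. Mitochondrial DNA supplies a few membrane-embedded core subunits, the ND proteins of complex I, cytochrome b of complex III, the COX subunits of complex IV and ATP6 of the ATP synthase, while the nucleus supplies the remaining subunits and every protein that copies, transcribes and translates mitochondrial DNA. The mitochondrial genome of the worm carries all its genes in 1 direction, and its transcripts are cut out of long precursors, so the 8 transcripts are not independent of each other. Much of the mitochondrial DNA of an adult worm is in the germline, where it is amplified in maturing oocytes.

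All levels below are deposited log2 intensities, with medians of 6.22 to 6.61 per array. The median was lowest in wild-type replicate 5 (6.22). It was highest in wild-type replicate 1 (6.61) and gas-1(fc21) replicates 4 (6.58) and 5 (6.57), with the others at 6.37 to 6.42. Taken over the probe sets (no independent replicates), Pearson correlations were 0.977 to 0.982 between gas-1(fc21) replicates 1 to 3 and replicates 4 and 5, against at least 0.992 within either set. Wild-type replicate 1 had correlations of 0.972 to 0.974 and replicate 5 of 0.978 to 0.979 with wild-type replicates 2 to 4, which had at least 0.995 among themselves. The counts and tests of the mitochondrial transcripts and of the nuclear gene lists are given with these 4 arrays and without them.

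Of the 8 transcripts from mitochondrial DNA, 3 rose in gas-1(fc21) worms relative to wild-type worms and 5 did not pass the test. All 8 had a positive difference, with a median of 0.209 on the log2 scale against 0.003 over all probe sets and -0.004 over the 1057 probe sets with a mean above 11. ATP6, ND1 and CYTB rose, by 1.21-fold, 1.18-fold and 1.17-fold. The test was limma over all probe sets with Benjamini-Hochberg adjustment, and calls were made at adjusted p under 0.05. For mitochondrial DNA 37.5% (3 of 8) were called higher and 0 lower, against 7.54% higher and 4.28% lower over all probe sets, and 9.74% higher and 5.49% lower among those with a mean above 11. On 6 of the 8, every gas-1(fc21) array was above every wild-type array, which held for 8.27% of all probe sets and 15.1% of those with a mean above 11. Every gas-1(fc21) array was below every wild-type array for 0 of the 8, and for 4.67% of all probe sets. With each array centred on its median, 0 of the 8 were called (ATP6 at 0.22, adjusted p = 0.26).

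Of these 8 probe sets, 7 were among the brightest on the array, above at least 97.2% of the tested probe sets on every array, and ND5 lay between the 43.2 and 58.6 percentiles. Brightness differs between probe sets for reasons other than transcript number, so levels are compared between arrays and not between genes. The bright ones varied little between replicates. Their pooled SD was between 0.039 and 0.077 for 6 of them and 0.122 for COX2, where the median over probe sets with a mean above 11 was 0.096. ND5 had a pooled SD of 0.266, against a median of 0.212 over all probe sets.

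**Figure D1:**
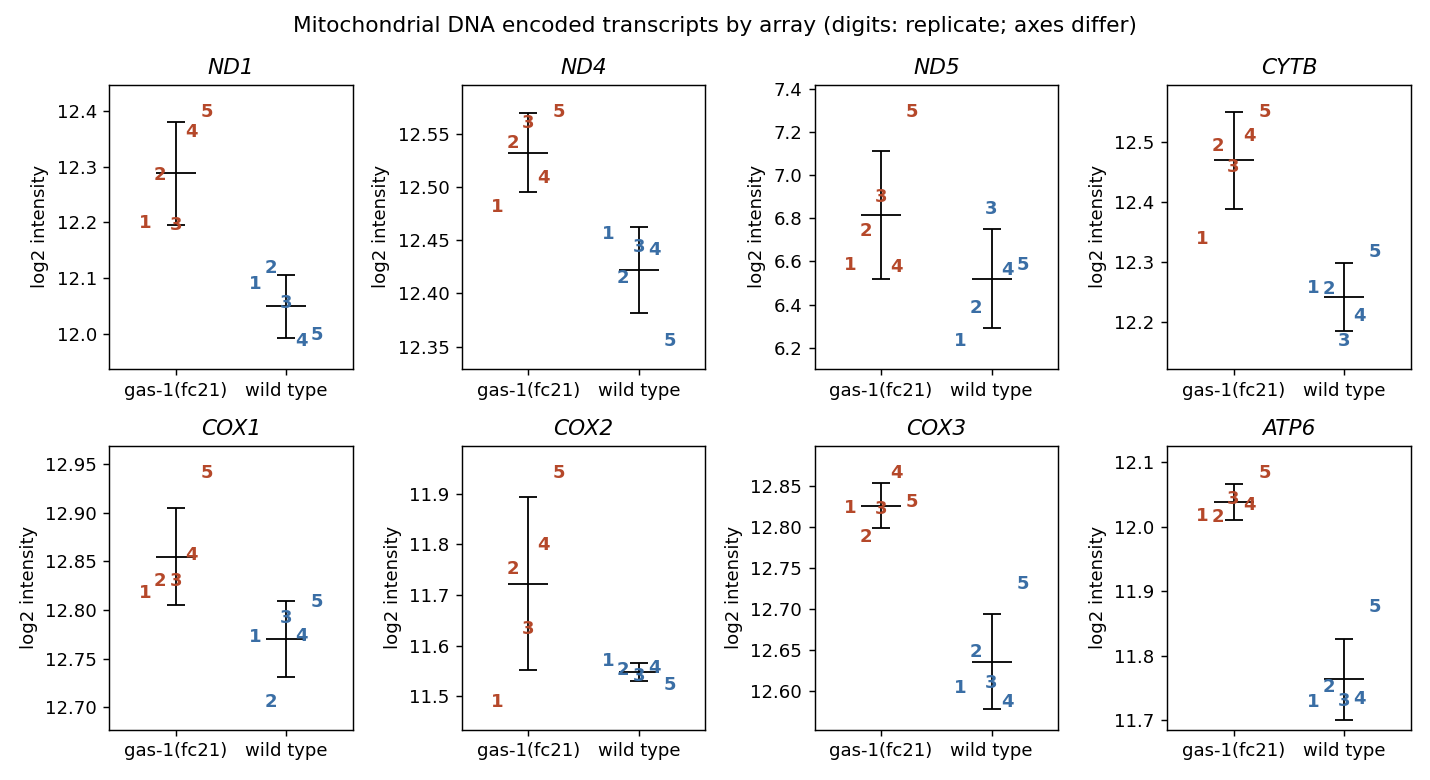
Log2 intensity of the 8 mitochondrial DNA encoded transcripts on each array, with gas-1(fc21) left and wild type right in each panel. Digits are replicate numbers, bars are the mean with 1 SD (n = 5 each), and the vertical axes differ between panels and do not start at 0. The groups are apart for ND1, ND4, CYTB, COX1, COX3 and ATP6, and overlap for COX2 and ND5.

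Complex I takes electrons from NADH, and its ND subunits form the proton-pumping arm in the inner membrane. ND1 (probe set 171934_x_at), the subunit at the junction with the arm that binds NADH, was at 12.199, 12.285, 12.196, 12.363 and 12.398 in gas-1(fc21) replicates 1 to 5, against 12.089, 12.118, 12.056, 11.986 and 11.997 in wild-type replicates 1 to 5. Every gas-1(fc21) array was above every wild-type array, with replicates 4 and 5 the highest. ND1 averaged 12.29 ± 0.09 in gas-1(fc21) and 12.05 ± 0.06 in the wild type (SD, n = 5 each), a difference of 0.24 (SE 0.07, 95% interval 0.09 to 0.39, limma adjusted p = 0.0456). The exact 2-sided permutation p was 0.00794, the smallest that 5 against 5 arrays can give. The suffix of this probe set marks probes that can match other transcripts.

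ND4 (171958_at), one of the antiporter-like pumping subunits, was at 12.48, 12.54, 12.56, 12.51 and 12.57 in gas-1(fc21), against 12.46, 12.42, 12.44, 12.44 and 12.36 in the wild type. The groups did not overlap, but the closest arrays, gas-1(fc21) replicate 1 and wild-type replicate 1, were only 0.025 apart. The difference of 0.11 (SE 0.06, interval -0.02 to 0.24) did not pass the test (limma adjusted p = 0.266, exact permutation p = 0.00794).

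ND5 (171891_at), the antiporter-like subunit at the far end of the membrane arm, was at 6.58, 6.74, 6.90, 6.57 and 7.29 in gas-1(fc21), against 6.23, 6.38, 6.84, 6.56 and 6.59 in the wild type. The groups overlapped, and only gas-1(fc21) replicates 3 and 5 were above all wild-type arrays. ND5 had the largest point estimate of the 8 at 0.30 and the widest interval, -0.05 to 0.64 (SE 0.16, limma adjusted p = 0.279, exact permutation p = 0.111). Its values were above the background controls, whose medians were 4.39 to 4.69 on gas-1(fc21) arrays and 4.43 to 5.25 on wild-type arrays.

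CYTB (173298_at) encodes cytochrome b, the heme protein of complex III on which ubiquinol is oxidised. It was at 12.34, 12.49, 12.46, 12.51 and 12.55 in gas-1(fc21), against 12.26, 12.26, 12.17, 12.21 and 12.32 in the wild type. The groups did not overlap, and the closest arrays were gas-1(fc21) replicate 1 and wild-type replicate 5. Means were 12.47 ± 0.08 in gas-1(fc21) and 12.24 ± 0.06 in the wild type (SD, n = 5 each), a difference of 0.23 (SE 0.07, interval 0.08 to 0.37, limma adjusted p = 0.0472, exact permutation p = 0.00794).

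Complex IV passes electrons to oxygen, and its 3 mitochondrial subunits form the catalytic core. COX1 (173349_at), which holds the oxygen-reducing heme and copper centre, was at 12.82, 12.83, 12.83, 12.86 and 12.94 in gas-1(fc21), against 12.77, 12.71, 12.79, 12.77 and 12.81 in the wild type. The lowest gas-1(fc21) array was 0.009 above the highest wild-type array. Its difference of 0.09 (SE 0.06, interval -0.04 to 0.21) was the smallest of the 8 and did not pass (limma adjusted p = 0.42, exact permutation p = 0.00794).

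COX2 (173292_at), the subunit that accepts electrons from cytochrome c, was at 11.49, 11.75, 11.63, 11.80 and 11.94 in gas-1(fc21), against 11.57, 11.55, 11.54, 11.56 and 11.52 in the wild type. The wild-type arrays were close together (SD 0.02), the gas-1(fc21) arrays were spread (SD 0.17), and gas-1(fc21) replicate 1 was below all wild-type arrays while the other 4 were above them. The difference was 0.17 (SE 0.09, interval -0.02 to 0.37, limma adjusted p = 0.239, exact permutation p = 0.0635).

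COX3 (173318_at), a core subunit that carries no redox centre, was at 12.82, 12.79, 12.82, 12.87 and 12.83 in gas-1(fc21), against 12.60, 12.65, 12.61, 12.59 and 12.73 in the wild type. The groups did not overlap, with wild-type replicate 5 closest to the gas-1(fc21) arrays. The difference of 0.19 (SE 0.06, interval 0.06 to 0.32) narrowly missed the threshold (limma adjusted p = 0.0592, exact permutation p = 0.00794), and it was called without wild-type replicate 5, at 0.215 (adjusted p = 0.0292).

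ATP6 (171915_at) encodes the membrane subunit of the ATP synthase through which protons pass to the rotor. It was at 12.02, 12.02, 12.04, 12.03 and 12.08 in gas-1(fc21), against 11.73, 11.75, 11.73, 11.73 and 11.88 in the wild type. It had the widest gap between the groups of the 8, with 0.14 between gas-1(fc21) replicate 2 and wild-type replicate 5. ATP6 averaged 12.04 ± 0.03 in gas-1(fc21) and 11.76 ± 0.06 in the wild type (SD, n = 5 each), a difference of 0.27 (SE 0.06, interval 0.14 to 0.40, limma adjusted p = 0.0134, exact permutation p = 0.00794).

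The call for ATP6 held without any single array, with adjusted p between 0.00533 and 0.0461. Of the 10 single-array omissions, the ND1 call held only without gas-1(fc21) replicate 1 (adjusted p = 0.0438) and otherwise had adjusted p of 0.0509 to 0.119. The CYTB call held only without gas-1(fc21) replicate 1 (0.0275) or wild-type replicate 5 (0.0338), and otherwise had adjusted p of 0.0599 to 0.12. With 1 array left out, 1 to 3 of the 8 were called. ATP6 was not called without gas-1(fc21) replicates 4 and 5 (0.26, adjusted p = 0.0559), where 0 of the 8 were called. Without those and wild-type replicates 1 and 5, ATP6 alone was called, at 0.29 (adjusted p = 0.015). With only wild-type replicates 1 and 5 left out, 3 were called, but not the same 3. They were ATP6 (limma adjusted p = 0.0107), CYTB (0.045) and COX3 (0.0486), and ND1 was not called (0.0799). The direction was positive for all 8 in these fits.

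**Figure D2:**
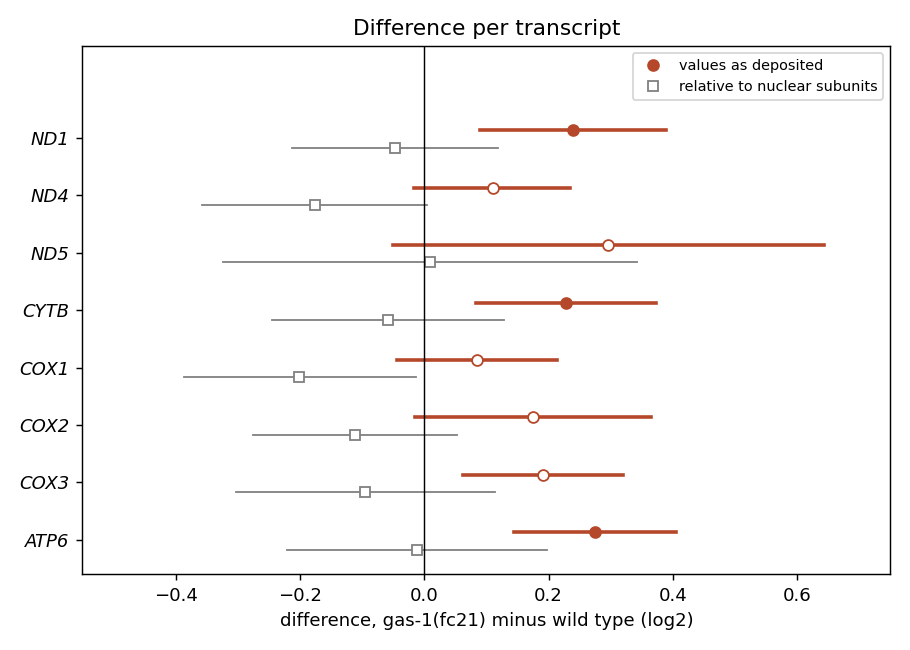
Difference between gas-1(fc21) and wild type on the log2 scale for each mitochondrial DNA encoded transcript, with 95% intervals from limma. Red circles use the values as deposited (filled, called), and grey squares are relative to the mean of 65 nuclear subunit genes on each array, where 0 were called. ATP6, ND1 and CYTB lie furthest from 0 relative to their intervals.

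Along the mitochondrial genome the RefSeq table gives the order ND1, ATP6, CYTB, COX3, ND4, COX1, COX2 and ND5 for the measured genes, with ND2 between ATP6 and CYTB and ND3 between COX2 and ND5. It places ND6 and ND4L before ND1. In that order the differences were 0.24, 0.27, 0.23, 0.19, 0.11, 0.09, 0.17 and 0.30. Of the measured genes, the first 4 in this order had the 4 lowest adjusted p-values, which also depend on each probe set's spread. The order starts where the table's numbering starts, and ND5, last in it, had the largest difference. The intervals of neighbours overlap, and differences between the 8 were not tested.

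After each group's mean was taken away, the 8 transcripts did not deviate as 1 block. Over the 28 pairs, Pearson correlations of these deviations across 10 arrays had a median of 0.34 and ran from -0.73 to 0.85, given as a description since all pairs share the same arrays. ATP6 and COX3 varied together (0.85), as did ND1 and COX2 (0.81) and CYTB and COX2 (0.77). ND4 went against COX3 (-0.73) and ATP6 (-0.47). In wild-type replicate 5, ATP6, COX3, CYTB and COX1 had their highest wild-type value, while ND4 and COX2 had their lowest.

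Each mitochondrial gene was set beside the nuclear subunit genes of its complex. Of 65 nuclear subunit genes of complexes I, III, IV and V, 29 rose, 0 fell and 36 did not pass, with a median difference of 0.282, where 7.55% of genes were called higher and 4.47% lower on 1 probe set a gene. Without gas-1(fc21) replicates 4 and 5 the count that rose was 15 (median 0.18), without wild-type replicates 1 and 5 it was 20 (median 0.255), and without all 4 it was 18 (median 0.157), with 0 called lower in each. Without gas-1(fc21) replicates 4 and 5 the counts were 10 in complex I, 2 in complex III, 1 in complex IV and 2 in complex V, against 16, 5, 3 and 5 with all arrays. Without wild-type replicates 1 and 5 the counts were 13, 2, 2 and 3 in the same order of complexes. Without all 4 arrays they were 12, 2, 2 and 2. In complex I the differences were 0.24 for ND1, 0.11 for ND4 and 0.30 for ND5, beside a median of 0.327 for the 32 nuclear genes, of which 16 rose. After gas-1 itself (0.67, limma adjusted p = 0.00567), nduf-7 (0.54, adjusted p = 0.00234), an iron-sulfur subunit, and nuo-5 (0.53, adjusted p = 0.00915), the large subunit of the NADH-binding arm, rose most.

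In complex III the difference was 0.23 for CYTB, beside a median of 0.328 for 10 nuclear genes, of which 5 rose. The core protein gene ucr-2.1 (0.75, limma adjusted p = 0.00965), R07E4.3 (0.53, adjusted p = 0.0216) and the cytochrome c1 gene cyc-1 (0.39, adjusted p = 0.0261) rose most. In complex IV it was 0.09 for COX1, 0.17 for COX2 and 0.19 for COX3, beside a median of 0.183 for 7 nuclear genes, of which 3 rose. Those 3 were cox-6C (0.44, adjusted p = 0.00497), cox-7C (0.30, adjusted p = 0.0167) and cox-4 (0.23, adjusted p = 0.0429). In complex V it was 0.27 for ATP6, beside a median of 0.198 for 16 nuclear genes, of which 5 rose, led by asg-2 (0.52, adjusted p = 0.00738), Y69A2AR.18 (0.48, adjusted p = 0.000977), the gamma subunit, and atp-3 (0.38, adjusted p = 0.0161).

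**Figure D3:**
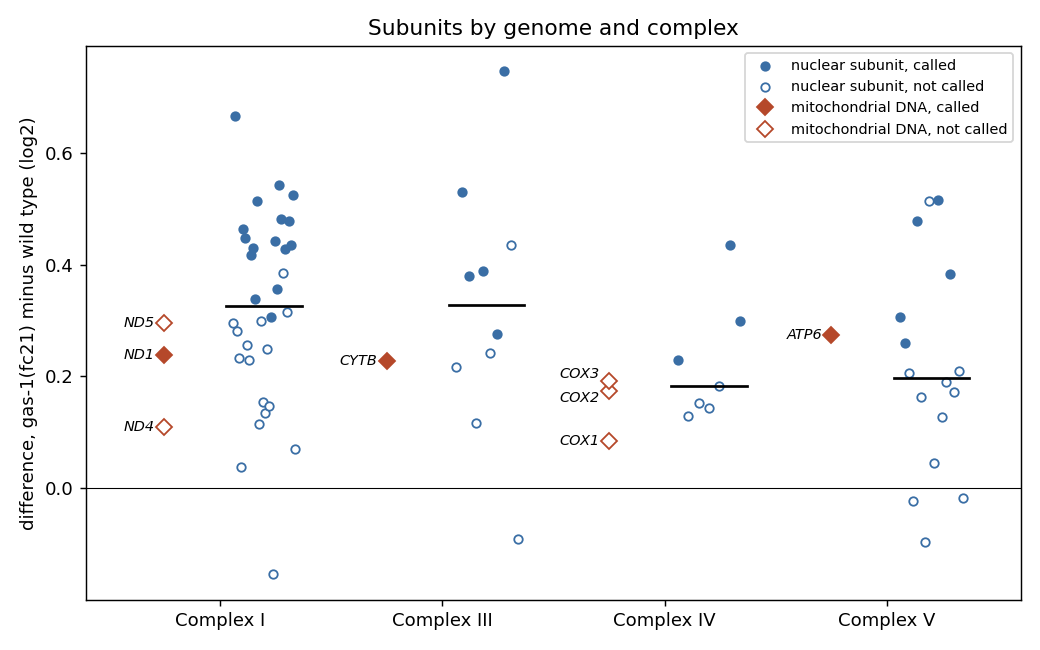
Difference between gas-1(fc21) and wild type on the log2 scale for subunits from mitochondrial DNA (red diamonds, left in each complex) and from the nucleus (blue circles, right), filled where called. Black lines are the medians of the nuclear genes, at 0.327, 0.328, 0.183 and 0.198 for complexes I, III, IV and V. ND1, ND4, ND5 and CYTB lie below the median of their complex and ATP6 above it.

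A direct test of each transcript against those nuclear genes came from centring each array on the mean of the 65 genes and refitting all probe sets. Of the 8, 0 were then called in limma after adjustment over all probe sets, and COX1 alone of the 8 had an unadjusted 95% interval that left out 0. COX1 was at -0.20 (interval -0.39 to -0.01, adjusted p = 0.0825) and ND4 at -0.18 (interval -0.36 to 0.01, adjusted p = 0.11). ATP6 was at -0.01 (interval -0.22 to 0.20, adjusted p = 0.927) and ND5 at 0.01 (interval -0.32 to 0.34, adjusted p = 0.96), and the others lay between -0.11 and -0.05. The intervals therefore leave room for shifts of about the size of the rises themselves. Without wild-type replicate 5, an array low in the nuclear genes, ATP6 was at 0.05 (interval -0.14 to 0.23), COX1 at -0.16 (interval -0.34 to 0.02) and ND4 at -0.16 (interval -0.35 to 0.03), a setting added after seeing the data. In further fits added then, without gas-1(fc21) replicates 4 and 5, without wild-type replicates 1 and 5 and without all 4, 0 of the 8 were called and every unadjusted interval held 0. COX1 was at -0.14, -0.16 and -0.10 in these fits, and ATP6 was at 0.06, 0.05 and 0.12.

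By array, the 8 transcripts averaged 0.099, 0.187, 0.186, 0.195 and 0.332 above the wild-type mean in gas-1(fc21) replicates 1 to 5, and the wild-type arrays lay between -0.031 and 0.030. The 65 nuclear subunit genes averaged 0.115, 0.257, 0.219, 0.404 and 0.433 above it in gas-1(fc21) replicates 1 to 5, against 0.026 to 0.035 in wild-type replicates 1 to 4 and -0.125 in wild-type replicate 5. Replicate 1 was lowest and replicate 5 highest among the gas-1(fc21) arrays on both measures. Without ND5, the dim and variable transcript, the mean of the other 7 was 0.105, 0.182, 0.159, 0.215 and 0.269 in gas-1(fc21) replicates 1 to 5, against -0.021 to 0.025 in the wild type, so that replicates 4 and 5 were the highest, as they were for the nuclear genes. Wild-type replicate 5 had the lowest value for the nuclear genes. For the 8 mitochondrial transcripts it was at 0.030, about level with wild-type replicate 3 at 0.029. Without ND5 it had the highest wild-type value, 0.025, with wild-type replicate 1 next at 0.007.

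**Figure D4:**
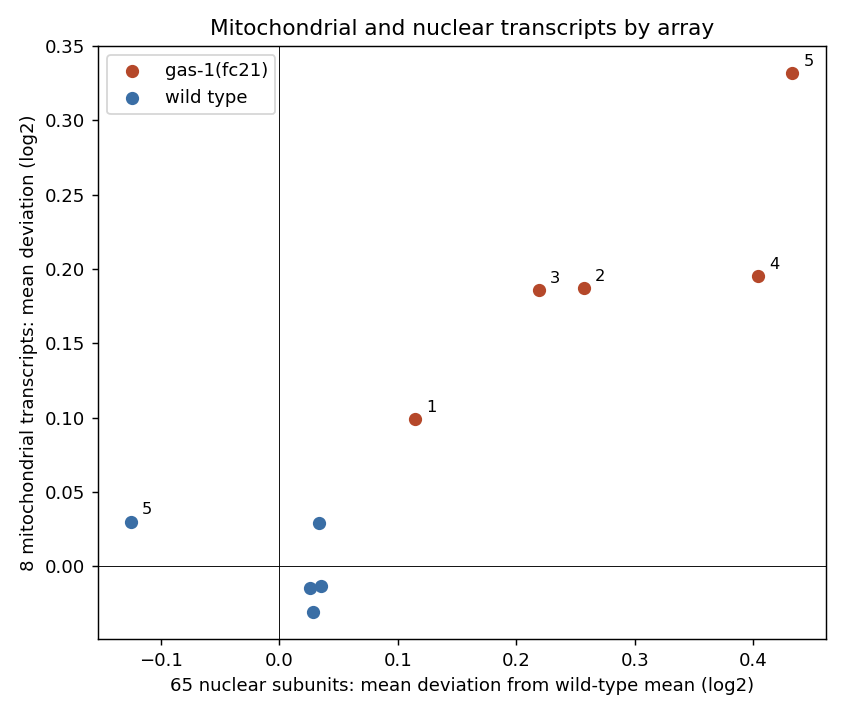
Mean deviation from the wild-type mean (log2) of the 8 mitochondrial DNA encoded transcripts, vertical, against that of 65 nuclear subunit genes, horizontal, 1 point an array. Digits are replicate numbers, written for the gas-1(fc21) arrays and wild-type replicate 5. The gas-1(fc21) arrays lie at 0.099 to 0.332 on the vertical axis and the wild-type arrays at -0.031 to 0.030, and wild-type replicate 5 stands apart on the horizontal axis.

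Genes that copy and express mitochondrial DNA went both ways. Of 16 such nuclear genes 5 rose, 2 fell and 9 did not pass, with a median difference of 0.289, where 7.55% of all genes were called higher and 4.47% lower. The translation elongation factor gene tsfm-1 (0.68, limma adjusted p = 0.00108), the transfer RNA modification gene mttu-1 (0.65, adjusted p = 0.000331) and the mitochondrial RNA polymerase gene rpom-1 (0.31, adjusted p = 0.0214) rose most. The other 2 that rose were polg-1 (0.31, adjusted p = 0.0245), the polymerase that copies mitochondrial DNA, and lonp-1 (0.30, adjusted p = 0.0275), a matrix protease. The gene tfbm-1, whose mammalian counterpart methylates mitochondrial ribosomal RNA, fell (-0.41, adjusted p = 0.0103), as did mtcu-2 (-0.32, adjusted p = 0.0358), which acts in transfer RNA modification. Without gas-1(fc21) replicates 4 and 5, 3 rose and 1 fell, without wild-type replicates 1 and 5, 4 rose and 2 fell, and without all 4, 5 rose and 2 fell.

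The packaging protein gene hmg-5, the worm counterpart of TFAM, was at 9.49 ± 0.14 in gas-1(fc21) and 9.40 ± 0.07 in the wild type (SD, n = 5 each), and did not pass (0.09, limma adjusted p = 0.555). The single-stranded DNA binding protein gene mtss-1 was at 11.34 ± 0.04 in gas-1(fc21) and 11.47 ± 0.06 in the wild type and did not pass either (-0.13, adjusted p = 0.22). Of 8 mitochondrial aminoacyl-tRNA synthetase genes 0 were called in limma, with an unadjusted p under 0.05 for 4 of them (25.8% of all genes had one), and their median difference was -0.01. Of these 8, 1 was called higher without gas-1(fc21) replicates 4 and 5, 1 without wild-type replicates 1 and 5, and 2 higher and 1 lower without all 4. Of 11 assembly factor genes for the complexes 2 rose and 0 fell, cox-15 (0.33, adjusted p = 0.0196) for heme A synthesis and sco-1 (0.24, adjusted p = 0.0459) for copper delivery to complex IV, with a median of 0.03. The shares over all genes were 7.55% higher and 4.47% lower. Without gas-1(fc21) replicates 4 and 5, 0 rose and 0 fell, without wild-type replicates 1 and 5, 0 rose and 1 fell, and without all 4, 1 rose and 2 fell.

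Of 12 genes for general mitochondrial proteins (import, chaperones, carriers, cytochrome c) 1 rose, 0 fell and 11 did not pass, with a median of 0.15. Among all genes 7.55% were called higher and 4.47% lower. The gene that rose was cyc-2.1, a cytochrome c gene (0.28, limma adjusted p = 0.0199). The other cytochrome c gene listed, cyc-2.2, had the largest difference of the 12 and did not pass (-1.50, limma adjusted p = 0.0525). It was at 6.195 ± 0.642 in gas-1(fc21) and 7.697 ± 0.914 in the wild type (SD, n = 5 each). Without gas-1(fc21) replicates 4 and 5, 0 rose and 1 fell, without wild-type replicates 1 and 5, 1 rose and 1 fell, and without all 4, 0 rose and 1 fell. The outer membrane channel gene vdac-1 was at 12.73 ± 0.05 in gas-1(fc21) and 12.64 ± 0.02 in the wild type, a difference of 0.09 (adjusted p = 0.343), and the ATP carrier gene ant-1.1 also differed by 0.09 (adjusted p = 0.361).

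Several tissue markers moved with the arrays or the groups, and their part in the mitochondrial result was not tested. Over all genes 7.55% were called higher and 4.47% lower, and 25.8% had an unadjusted limma p under 0.05. The mean log2 level of 5 germline markers was 10.83 to 11.05 on gas-1(fc21) arrays and 11.09 to 11.17 on wild-type arrays, with 0 called higher and 1 lower, the helicase gene glh-1 (-0.44, limma adjusted p = 0.00294). All 5 germline differences were negative, and 2 had an unadjusted limma p under 0.05. The 8 oocyte markers were at 12.20 to 12.51 in gas-1(fc21) and 12.33 to 12.61 in the wild type, with 0 called in either direction in limma and 0 at an unadjusted p under 0.05. Their mean was lowest in gas-1(fc21) replicates 4 and 5 (12.20 and 12.25) and highest in wild-type replicate 5 (12.61). The 5 body wall muscle markers were at 9.55 to 10.66 in gas-1(fc21) and 9.26 to 10.19 in the wild type, with 0 called and 0 at an unadjusted p under 0.05, and were highest in gas-1(fc21) replicates 4 and 5 and lowest in wild-type replicate 5.

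The 8 sperm markers were at 5.29 to 5.90 in gas-1(fc21) and 5.41 to 6.39 in the wild type, with 0 called higher and 1 lower, spe-11 (4.76 ± 0.36 in gas-1(fc21) and 6.30 ± 0.85 in the wild type, limma adjusted p = 0.0216). Of these 8, 3 had an unadjusted limma p under 0.05, and differences were negative for 5 and positive for 3. The mean of the sperm markers was 5.41 in wild-type replicate 5. In the other wild-type arrays it was 6.26 to 6.39, above every gas-1(fc21) array. The sperm markers gsp-3 (-1.90, adjusted p = 0.0694) and gsp-4 (-1.57, adjusted p = 0.076) did not pass. Of 6 intestinal and 4 epidermal markers 0 were called in limma, with 1 of each at an unadjusted p under 0.05. Their mean log2 levels were 10.76 to 11.15 and 8.40 to 9.31 in gas-1(fc21), against 10.78 to 10.84 and 7.93 to 8.59 in the wild type. The epidermal markers, all 4 with positive differences of 0.41 to 0.57, were highest in gas-1(fc21) replicates 4 and 5 (9.31 and 9.30) and lowest in wild-type replicate 5 (7.93), as the muscle markers were. Of 2 pharyngeal markers 0 were called in limma, with 1 at an unadjusted p under 0.05, and their differences were -0.55 and -0.16. Of 5 neuronal markers 1 rose, the synaptobrevin gene snb-1, and 2 had an unadjusted limma p under 0.05. The 3′ minus 5′ difference of the glyceraldehyde-3-phosphate dehydrogenase control was -0.322 to -0.209 in gas-1(fc21) and -0.118 to -0.030 in the wild type, whereas those of the actin and ubiquitin controls overlapped between the groups. Whether that measure has a part in the result was not tested.

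Of 6940 probe sets that name 1 other gene and have a mean above 8, those most like the mean of the 8 transcripts over the 10 arrays were on stl-1 (Pearson r = 0.974), F26F12.3 (0.972), M05D6.5 (0.967), ipgm-1 (0.967) and gcs-1 (0.966). All 5 rose in gas-1(fc21), by 0.44, 1.12, 0.97, 0.45 and 0.37 on the log2 scale. The choice favours such genes, since the mean of the 8 transcripts was itself higher on every gas-1(fc21) array than on every wild-type array. With the group means taken away, the 5 closest were dnj-14 (0.960), sdn-1 (0.941), die-1 (0.937), idhg-1 (0.935) and selt-1.1 (0.925), and 0 of these were called in limma, with differences of -0.06, 0.05, -0.10, 0.16 and 0.18. These correlations describe the arrays at hand, since each gene was picked as the closest of many. The mean of the 8 was taken without scaling. Once the group means are taken away, ND5 (pooled SD 0.266) and COX2 (0.122) therefore weigh more in it than the other transcripts (at most 0.077).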

How the data were processed

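Total RNA of 10 samples was hybridised to 1 Affymetrix array each, from biotinylated cRNA, per the labels' protocols. The deposited values are log2 intensities per probe set, a scale inferred from their range (at most 14.213), and the authors' computation and normalization were not given in the sources used here. Tests left out 77 control probe sets. Array medians spanned 0.386, under the 0.5 set for quantile normalization, so values were used as deposited. No 2 arrays held the same values, since at least 99.7% of probe sets differed between any 2 arrays. That count cannot tell whether 2 arrays came from the same RNA. Gene names came from the platform annotation, updated through gene identifiers in the RefSeq table of WBcel235, which held 20701 of the 20766 probe sets naming 1 gene.

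For 22548 probe sets a model with genotype as its only term was fitted in limma 3.58.1 under R 4.3.3 (lmFit, eBayes, 2-sided), followed by Benjamini-Hochberg adjustment. Differences are gas-1(fc21) minus wild type, and folds are 2 raised to them. Exact 2-sided permutation tests used all 252 assignments. Lists used the brightest probe set that names the gene alone. Some of these carry a suffix that marks probes able to match other transcripts. Among named list genes, they are those of gas-1, nduf-7, nuo-5, cox-4, cox-7C, atp-3, Y69A2AR.18, tsfm-1, mttu-1, rpom-1, lonp-1, cox-15, vdac-1 and ant-1.1. Among named tissue markers, they are those of glh-1, snb-1, gsp-3 and gsp-4. The text names every mitochondrial DNA encoded transcript, gas-1, up to 3 called genes a list and direction, and the 5 genes most alike by each measure. Other genes were named after their values were seen: polg-1 and lonp-1, the rest of a called set, then hmg-5, mtss-1, vdac-1, ant-1.1, cyc-2.2, gsp-3, gsp-4, unc-119 and called tissue markers. Members and lists were chosen with earlier results of these data known. Of the names listed, 3 resolved to genes that are not subunits and were dropped from the complex lists. The fit was tested on simulated data. The number of arrays limits the precision.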

Additional observations from a re-analysis of the deposited data

Results flagged for a closer look

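Within groups of 5 arrays, 24 sets of values were checked for 1 array far from the others, and 4 stood out, where chance gives about 1 in 20. All 4 concern wild-type replicate 5. For ATP6 it was at 11.875, above the other wild-type arrays at 11.728 to 11.752. For the mean of the nuclear genes of complex I it was at 10.873, below the others at 11.035 to 11.052, for complex III at 10.932, below the others at 11.145 to 11.156, and for complex V at 11.408, below the others at 11.511 to 11.541. The same array was thus high in a mitochondrial DNA encoded subunit and low in nuclear subunits. It also had the lowest median over all probe sets, 6.22, and its lowest wild-type values included ND4 and COX2. Whether its overall level has a part in this was not tested.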

How the results depend on the processing

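All 8 differences were positive under each of 20 alternatives, not counting those centred on nuclear genes. Instead of 3 transcripts called higher, 0 were called with arrays centred on their medians, 0 with the replicate number as a block, 0 without gas-1(fc21) replicates 4 and 5, 1 without those and wild-type replicates 1 and 5, 5 with an intensity trend and robust variance (COX3 and ND4 added), and 1 to 3 without 1 array. ATP6 was called under 17 of those 20, CYTB under 8, ND1 under 6, COX3 under 5, ND4 under 1, and COX1, COX2 and ND5 under 0, and the cause was not tested. Centred on nuclear genes, 0 were called, with ND1 at -0.047, ATP6 at -0.011, CYTB at -0.058, COX3 at -0.095, ND4 at -0.176, COX1 at -0.201 and COX2 at -0.111. Without wild-type replicate 5 as well (added after seeing the data), 0 were called, with ND1 at -0.029, CYTB at -0.008, COX3 at -0.040, ND4 at -0.162, COX1 at -0.160 and COX2 at -0.086. In the other added fits 0 were called. Without gas-1(fc21) replicates 4 and 5, ND1 was at -0.020, CYTB at -0.009, COX3 at -0.021, ND4 at -0.092, COX1 at -0.142 and COX2 at -0.121. Without wild-type replicates 1 and 5, ND1 was at -0.019, COX3 at -0.042, ND4 at -0.155, COX1 at -0.156, COX2 at -0.080 and ND5 at -0.034. Without all 4, ND4 was at -0.071, COX1 at -0.096, COX2 at -0.090 and ND5 at -0.022. A transcript that did not pass is not shown to be unchanged. The values gave no sign that the replicate numbers pair the arrays: deviations of same-numbered arrays had correlations of -0.175 to 0.098, and 0 of 5 arrays fitted best with their own number. Some arrays stand apart within their group, so these correlations cannot show that same-numbered samples were handled separately.

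Over all probe sets, 1701 were called higher and 964 lower. These were 2969 and 2535 with array weights, and 1069 and 370 with the replicate block, and 1529 and 2522 were lower without wild-type replicates 1 and 5 and without all 4 arrays. Without 1 array, 1176 to 1868 were higher and 479 to 1609 lower. Of 112 listed nuclear genes, 37 were higher and 2 lower. Higher were 22 with median centring, 57 with the trend, 59 with weights, 11 with the block, 19 without gas-1(fc21) replicates 4 and 5, and 25 to 50 without 1 array. Lower were 5 with quantile normalization, 4 without the dimmest 33%, 4 with the trend, 6 with weights, 1 with the block, 4 without wild-type replicates 1 and 5, 6 without all 4 arrays, and 1 to 3 without 1 array. Probe sets naming several genes included 0 with a mitochondrial DNA encoded gene, so that alternative gave no value.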
